A study of Mus musculus with 6 samples.

Results

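Interferon-induced genes were examined in CD4 T cells from the inflamed colon of mice. The genes were chosen by name: 48 symbols of the deposited count table, out of 55335 genes, in 2 lists. The antiviral list had 33 genes and the GTPase list had 15, namely the guanylate-binding protein (Gbp) genes and the immunity-related GTPase genes Irgm1, Irgm2, Igtp, Iigp1, Tgtp1, Tgtp2 and Ifi47. All 48 were found, each under a single identifier.

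Both groups came from one kind of experiment. Splenic naive CD4 T cells of TcfGFP mice, which carry a GFP reporter for Tcf7, were put into Rag1 KO hosts, and colitis developed. Rag1 knockout hosts have no T or B cells of their own but keep their myeloid cells. Colon lamina propria CD4 T cells were then sorted into GFP+ cells, which the labels call stem-like (TCF7+), and GFP- cells, which they call effector (TCF7-), with 3 libraries of each. The labels give no age, sex or strain, and do not say whether replicates were separate mice, and p-values then reflect no more than how these libraries varied.

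Interferons are cytokines that switch a cell into an antiviral state. Type I interferons act through the receptor chains IFNAR1 and IFNAR2, the kinases JAK1 and TYK2 and transcription factors that bind the interferon-stimulated response element (ISRE). Interferon gamma, a main product of Th1 cells, acts through IFNGR1, IFNGR2, JAK1 and JAK2, and the factors they switch on bind the gamma-activated site (GAS). The antiviral list holds sensors and effectors that type I interferons are best known to induce, and the GTPases are best known as targets of interferon gamma that attack the vacuoles of intracellular pathogens.

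The letters that both pathways are known to bind were looked for in the members' promoters. RefSeq promoter windows (GRCm38.p6) matched 33 of the 48 members, and the 250 bases before each start were searched. GAAA, any 2 bases and again GAAA, the core of an ISRE, was searched on both strands, and matches may overlap each other. It occurred in 9 of 10 matched GTPase genes and 10 of 23 matched antiviral genes, against 3.46% of all 27025 genes with a window. The letters TTCNNNGAA, the core of a GAS, which reads alike on both strands, occurred in 6 of the 10 and 4 of the 23, against 8.13% of all genes. A match is a description of the letters, not a measured binding site. Some members are copies with alike promoters, such as Tgtp1 and Tgtp2 or Ifit3 and Ifit3b, and each was counted. In 24 of 39 member windows the 40 bases after the start lay in a transcript of the gene.

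In 4 genes of chromosome 11 (Igtp, Irgm2, Tgtp1 and Tgtp2) a GAS match opened 11 bases before an ISRE match. In the antiviral gene Bst2 a GAS match opened 12 bases before 1 of 2 ISRE matches. The 8 matched members with both in 1 window were these genes, Oas1a, Gbp5 and Gbp7. The sequences below show the 11-base arrangement in Igtp, Irgm2 and Tgtp2. For contrast, they show ISRE matches without a GAS match in Gbp2, Ifit1, Oas3 and Isg15. Capitals mark the matches and each line ends at the base before the RefSeq start.
Igtp (chr11:58199306-58199555, plus strand): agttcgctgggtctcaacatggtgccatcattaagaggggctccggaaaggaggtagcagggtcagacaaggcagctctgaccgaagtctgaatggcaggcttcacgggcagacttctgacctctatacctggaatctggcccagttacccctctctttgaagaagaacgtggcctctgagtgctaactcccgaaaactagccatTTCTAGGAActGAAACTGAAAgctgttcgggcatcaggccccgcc
Irgm2 (chr11:58214727-58214976, plus strand): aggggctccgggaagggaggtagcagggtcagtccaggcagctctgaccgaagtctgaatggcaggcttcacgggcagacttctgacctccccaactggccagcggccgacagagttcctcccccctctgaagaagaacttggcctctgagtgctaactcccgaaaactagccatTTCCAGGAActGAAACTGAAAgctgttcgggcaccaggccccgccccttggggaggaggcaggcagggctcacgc
Tgtp2 (chr11:49064213-49064462, minus strand): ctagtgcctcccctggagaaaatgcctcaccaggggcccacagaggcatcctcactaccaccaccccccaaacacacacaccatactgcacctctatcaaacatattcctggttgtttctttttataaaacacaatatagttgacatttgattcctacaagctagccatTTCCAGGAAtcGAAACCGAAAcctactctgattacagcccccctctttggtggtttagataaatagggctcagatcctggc
Gbp2 (chr3:142620413-142620662, plus strand): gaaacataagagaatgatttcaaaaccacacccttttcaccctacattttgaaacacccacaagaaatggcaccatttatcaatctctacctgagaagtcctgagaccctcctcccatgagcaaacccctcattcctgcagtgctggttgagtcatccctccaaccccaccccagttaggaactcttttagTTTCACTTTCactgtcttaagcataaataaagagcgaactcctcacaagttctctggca
Ifit1 (chr19:34640639-34640888, plus strand): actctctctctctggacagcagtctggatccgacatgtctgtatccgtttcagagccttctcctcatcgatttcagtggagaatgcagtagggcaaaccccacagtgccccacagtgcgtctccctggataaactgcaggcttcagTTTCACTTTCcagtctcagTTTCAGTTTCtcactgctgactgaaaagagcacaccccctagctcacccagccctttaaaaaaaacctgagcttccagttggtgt
Oas3 (chr5:120777660-120777909, minus strand): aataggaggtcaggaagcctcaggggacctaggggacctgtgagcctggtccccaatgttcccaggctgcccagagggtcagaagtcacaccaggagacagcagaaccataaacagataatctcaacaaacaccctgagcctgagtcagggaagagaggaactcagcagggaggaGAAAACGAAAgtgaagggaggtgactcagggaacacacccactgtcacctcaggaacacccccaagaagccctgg
Isg15 (chr4:156200819-156201068, minus strand): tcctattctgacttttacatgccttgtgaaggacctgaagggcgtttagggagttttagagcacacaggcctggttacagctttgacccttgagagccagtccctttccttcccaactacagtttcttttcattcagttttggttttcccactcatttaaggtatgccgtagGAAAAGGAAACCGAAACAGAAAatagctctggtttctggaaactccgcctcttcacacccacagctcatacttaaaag
In Ifit1 the 2 matches lie on the minus strand, opening 104 and 85 bases before the start. In Isg15 there are 3 overlapping matches in one run.

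Total counts were 4309500 to 7462076 per library, and 3 counts equalled 0.43 to 0.69 CPM (counts scaled to a common library size with TMM factors, which correct for the makeup of a library). Tcf7, the gene of the reporter, had levels of 121, 141 and 71.3 CPM in the GFP-negative gate (replicates 1 to 3) and of 237, 183 and 141 CPM in the GFP-positive gate (replicates 1 to 3). All 9 T cell markers were found in every library, at a summed 0.701% to 0.767% of counts in GFP-negative and 0.558% to 0.809% in GFP-positive libraries. The lowest sum, 0.558%, was in GFP-positive replicate 3, against 0.701% to 0.809% in the other 5 libraries. GFP-positive replicate 3 stood apart. All 14 myeloid markers were highest there, with a sum of 0.779% of counts against 0.0152% to 0.0237% in the other 5 libraries. Antigen-presenting cell markers summed to 0.658% there against 0.0186% to 0.0442%, epithelial markers to 0.0423% against 0.00368% to 0.0103%, and stromal and endothelial markers to 0.0361% against at most 0.00106%, with Cdh5, Kdr and Vwf at 0. Most counts over the lists, and the fold changes of most genes described, are therefore given with and without that library. The part of the other cells in the results was not tested.

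Most interferon-induced genes had a positive fold change, and none passed a test over all genes. Of the 48, 45 passed the expression filter and were tested, 40 of them at or above its limit in all 6 libraries. Of the other 5, Ifit3b, Oasl2, Usp18 and Rsad2 were below it in 1 or 2 GFP-negative libraries only, and Mx1 in 1 GFP-positive library. By edgeR's quasi-likelihood test with Benjamini-Hochberg adjustment, 0 of 45 members passed an adjusted p of 0.05, where 12 of 11074 genes did (0.108%). Tcf7, the gene of the reporter, did not pass either. Its log2 fold change was 0.75 ± 0.26 (SE; by edgeR, adjusted p = 0.367), higher in GFP-positive cells. Without GFP-positive replicate 3 it was 0.94 ± 0.24 (edgeR adjusted p = 0.111). At an unadjusted p under 0.05 there were 14 members, all higher in GFP-positive cells, against 10.3% of all genes in either direction and 4.31% in that one. These 14 include Usp18 and Rsad2, which entered the test through the gate where they were high, and 12 others. DESeq2 called 1 member (Rtp4; 1.81% of all genes) and limma-voom 0 (0.163% of all genes), with 17 and 10 members at an unadjusted p under 0.05. With no expression filter edgeR called 4 members (Ifi44, Iigp1, Oasl2 and Rtp4) and 1.78% of all genes. All 4 were highest in GFP-positive replicate 3, where Ifi44 had its only counts. The fit with no filter was not run without that library.

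A positive log2 fold change stands for a higher level in GFP-positive cells. In the antiviral list it was positive for 26 of the 30 members tested, with a median of 0.36. The 26 include Ifit3b, Oasl2, Usp18 and Rsad2, which were below the filter limit in GFP-negative libraries only. In the GTPase list 14 of 15 were positive, with a median of 0.32, although Igtp, at 0.00, turned negative under some scalings. Over all tested genes 51.6% were positive and the median was 0.02. Without GFP-positive replicate 3 the antiviral list had 23 positive members and a median of 0.27, and the GTPase list 14 and 0.31, against 51.5% and 0.01 over all genes. With that library left out, 0 of 45 members and 0.452% of all genes passed the adjusted threshold. At an unadjusted p under 0.05 there were then 12 members, against 12.3% of all genes. Of the 12, 1 (Mx1) was lower in GFP-positive cells, as were 835 of the 1362 such genes over all tested. With the replicate number as a block, Rtp4 alone passed, while 0.731% of all genes did.

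Groups did not overlap in 9 of the 45 tested members, each time with all GFP-positive libraries above all GFP-negative ones: Rtp4, Oas3, Ifi203, Ifi209, Rsad2, Ddx58 and Cmpk2 in the antiviral list, and Tgtp1 and Gbp5 among the GTPases. Over all tested genes 7.25% did not overlap in that direction, and 8.8% in the opposite one, where 0 members were found. Without GFP-positive replicate 3, 14 members did not overlap in that direction, against 13.6% of all genes. In the opposite direction 2 members, Mx1 and Ifi27l2a, did not overlap then, against 15.8% of all genes. Rsad2, counted among the 9 and the 14, entered the test through the gate where it was high.

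Compared within the 3 pairs of libraries with the same replicate number, 14 of 30 antiviral members and 7 of 15 GTPases were higher in the GFP-positive library each time, against 16.3% of all tested genes. The 7 GTPases were Gbp2, Gbp4, Gbp5, Gbp8, Gbp9, Tgtp1 and Tgtp2. In the opposite direction there was 1 member, Ifih1, against 17.8% of all tested genes. The 14 antiviral members include Usp18 and Rsad2, which entered the test through the gate where they were high. These counts include the pair with GFP-positive replicate 3 and were not made without it. What a replicate number marks is not given in the labels.

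**Figure D1:**
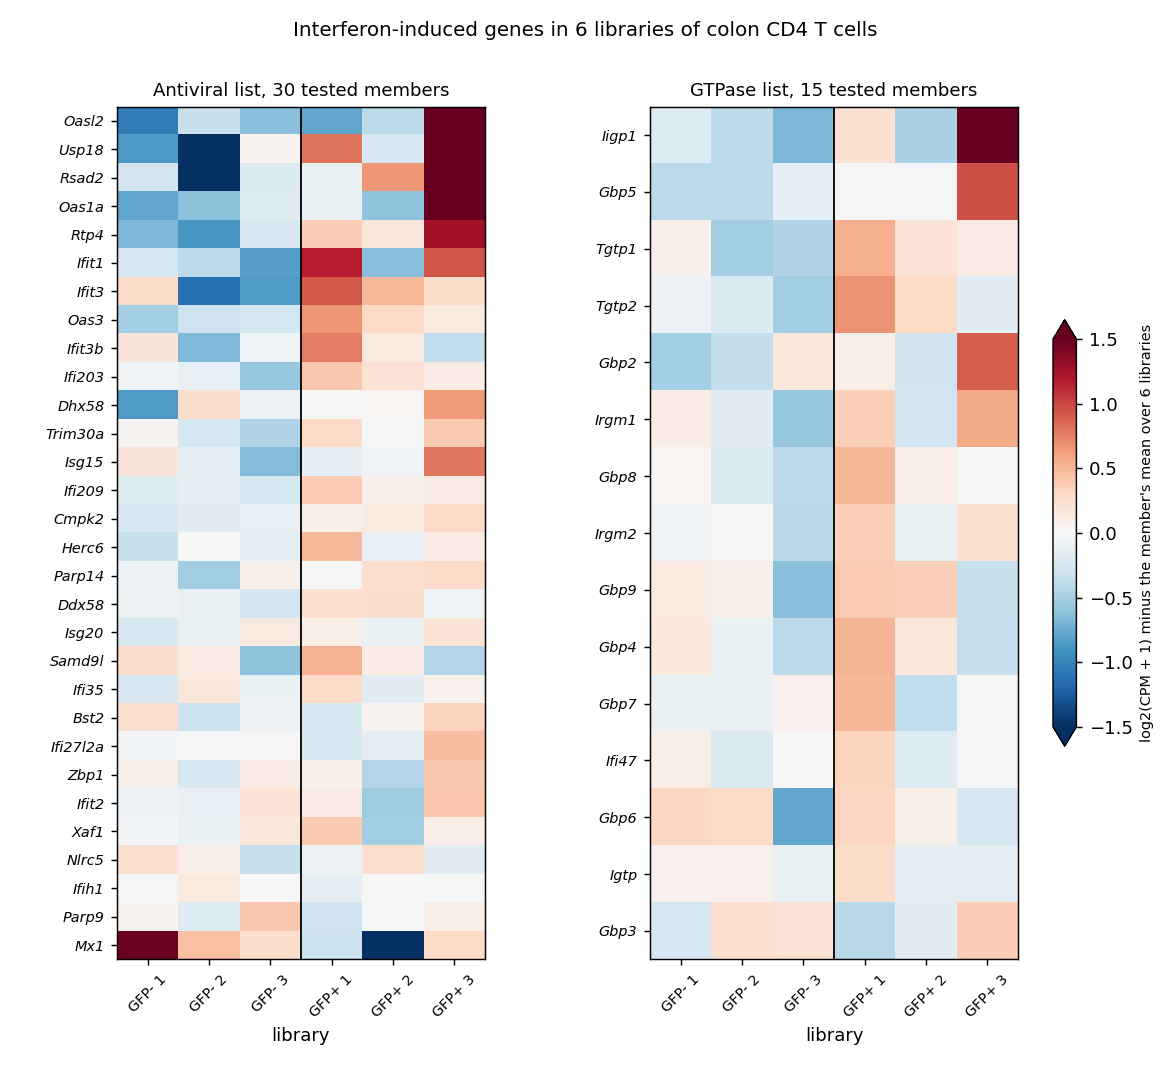
Level of each tested member in each library, as log2(CPM + 1) minus the member's own mean over the 6 libraries (colour, cut at the ends of the scale); rows are members ordered by log2 fold change and columns are libraries, GFP-negative to the left of the line. GFP-positive replicate 1 is the highest library for 10 of 15 GTPases, and GFP-positive replicate 3 is the highest for 15 of 30 antiviral genes. Over all 11074 tested genes these libraries are the highest for 2130 and 2132.

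The libraries differed in which list was high. GFP-positive replicate 3 was the highest of the 6 libraries for 15 of 30 tested antiviral members and 5 of 15 GTPases. Over all 11074 tested genes it was the highest for 2132. The 15 include Oasl2, Usp18 and Rsad2, which entered the test through the gate where they were high. GFP-positive replicate 1 was the highest for 10 antiviral members and 10 GTPases, against 2130 of all tested genes. GFP-negative replicate 3 was the lowest for 8 of each list, against 1989 of all tested genes. The median member of the antiviral list, set against its own mean over the 6 libraries on the log2 scale, lay at -0.08, -0.15 and -0.14 in GFP-negative replicates 1 to 3 and at 0.11, 0.00 and 0.29 in GFP-positive replicates 1 to 3. These groups did not overlap. The 30 members include Ifit3b, Oasl2, Usp18 and Rsad2, which were below the filter limit in GFP-negative libraries only. The medians were not made without them. For the GTPase list the same medians were 0.03, -0.16 and -0.39 for the GFP-negative gate against 0.35, -0.11 and 0.02 for the GFP-positive one, and the groups overlapped. Between libraries of the same replicate number, the GTPase median was higher in the GFP-positive one in all 3 pairs. Over all tested genes the medians were 0.00 to 0.02.

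**Figure D2:**
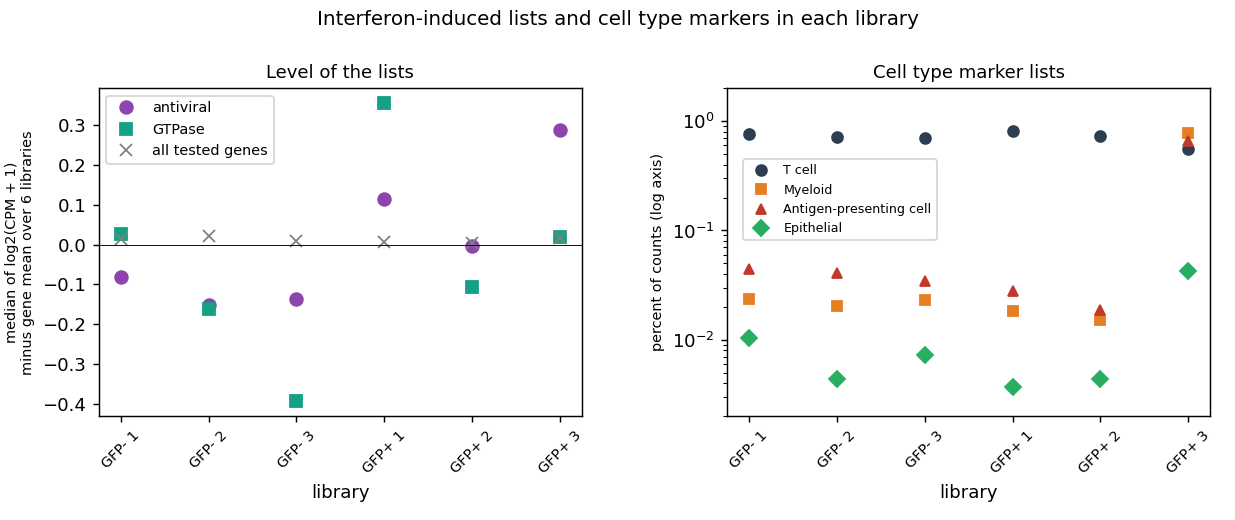
Left, the median of log2(CPM + 1) minus each gene's mean over the 6 libraries, for the antiviral list (circles), the GTPase list (squares) and all tested genes (crosses). Right, summed markers of T cells, myeloid cells, antigen-presenting cells and epithelium as a percent of counts on a log axis. The antiviral list is highest in GFP-positive replicate 3 (0.29), where myeloid markers reach 0.779% of counts, and the GTPase list is highest in GFP-positive replicate 1 (0.35), where they hold 0.0182%.

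Of the 4 sensors of viral RNA and DNA, none passed the test over all genes. Ddx58, which encodes RIG-I, a sensor of viral RNA ends, stood at 63.2, 61.4 and 54.8 CPM in GFP-negative and 79.5, 80.2 and 63.7 CPM in GFP-positive libraries. The groups were apart by a narrow margin, with a log2 fold change of 0.32 ± 0.19 (SE) and an edgeR adjusted p of 0.629. Without GFP-positive replicate 3 it was 0.43 ± 0.20 (edgeR adjusted p = 0.408). Ifih1, which encodes the long-RNA sensor MDA5, was level, at 33.1 to 40.3 CPM in all 6 libraries. Dhx58 (LGP2, a regulator of both) ranged from 7.75 to 23.7 CPM and Zbp1, a sensor of Z-form nucleic acid, from 63.5 to 114 CPM, and for both the groups overlapped. Each had its highest value in GFP-positive replicate 3, and their log2 fold changes of 0.45 and 0.06 were 0.21 and -0.14 without it.

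The antiviral list holds 2 genes of the Ifi200 family, a family of DNA-binding proteins. Ifi203 (chromosome 1, 173920407 to 173942672, minus strand) had 202, 191 and 141 CPM in GFP-negative and 276, 243 and 225 CPM in GFP-positive libraries. Ifi209 (chromosome 1, 173630917 to 173647928, plus strand) had 141, 144 and 133 CPM against 207, 168 and 174 CPM. In both genes every GFP-positive library exceeded every GFP-negative one. Their log2 fold changes were 0.48 ± 0.16 and 0.39 ± 0.14 (SE; by edgeR, adjusted p = 0.322 and 0.358), and 0.56 and 0.44 without GFP-positive replicate 3 (edgeR adjusted p = 0.199 and 0.246). Some reads are shared between copies: 17.9% of the 100-base windows of the longest Ifi209 transcript also occur in Ifi214, and 3.31% of those of Ifi203 occur in Mndal or Ifi203-ps. Some other genes of the family, named here after their values were seen, were high in GFP-positive replicate 3 alone. Ifi205 had 47.5 CPM there against 0.388 to 4.39 CPM, and Ifi204 27.5 CPM against 0 to 1.36 CPM. Ifi207 had 13.1 CPM there against 0 to 2.19 CPM. Others, also named after their values were seen, were not high there alone. Mndal had 131, 148 and 130 CPM in GFP-negative and 181, 158 and 149 CPM in GFP-positive libraries. Ifi206 had 155 to 198 CPM against 175 to 199 CPM, and Ifi208 10.9 to 17.8 CPM against 13.5 to 25.3 CPM. Ifi211 had 4.17 to 9.32 CPM against 9.66 to 18.8 CPM, and Ifi213 is described below.

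Oligoadenylate synthetases, which sense double-stranded RNA and switch on RNase L, did not move as one. Oas3 (chromosome 5, 120753098 to 120777661, minus strand) stood at 26.2, 30.2 and 31.1 CPM in GFP-negative and 60.3, 46.4 and 41.5 CPM in GFP-positive libraries, with no overlap. Its mean went from 29.2 ± 2.65 to 49.4 ± 9.75 CPM (SD, n = 3 each), a log2 fold change of 0.76 ± 0.24 (SE; by edgeR, adjusted p = 0.259). Without GFP-positive replicate 3 it was 0.88 ± 0.25 (edgeR adjusted p = 0.176). No 100-base window of Oas3 occurs in another gene.

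Oas1a had 2.13, 2.501 and 3.73 CPM in GFP-negative and 3.98, 2.53 and 25.5 CPM in GFP-positive libraries, so only GFP-positive replicate 3 stood clearly above the rest. The log2 fold change of Oas1a was 1.94 ± 0.82 (SE; by edgeR, adjusted p = 0.444) and 0.24 without that library (edgeR adjusted p = 0.954). Oasl2, a related gene, had 1.55, 3.18 and 2.41 CPM against 2.08, 2.99 and 48.1 CPM. Its log2 fold change was 2.90 ± 1.32 (SE; by edgeR, adjusted p = 0.54) with all libraries and 0.10 ± 0.95 without GFP-positive replicate 3 (edgeR adjusted p = 0.981). The value of Oasl2 in that library was 19.9 times the median of the other 5, and that of Oas1a 10.1 times. Of the Oas1a windows, 40.9% also occur in Oas1g, so reads of these copies may be mixed. Oas1b, which is no member and is named after its values were seen, had 6.78, 12.5 and 12.5 CPM in GFP-negative libraries and 4.50, 4.60 and 9.04 CPM in GFP-positive ones. For Oas1b the log2 fold change was -0.80 (edgeR adjusted p = 0.663), or -1.20 without GFP-positive replicate 3 (edgeR adjusted p = 0.41).

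Oas2 and Oasl1 were not tested. Oas2 had 17 and 34 counts in GFP-positive replicates 1 and 3 (2.94 and 4.88 CPM) and none in the other 4 libraries. Oasl1, an inhibitor of IRF7 translation, had 15 counts in GFP-negative replicate 3 and 74 in GFP-positive replicate 3 (3.29 and 10.6 CPM) and none elsewhere. Ifi44, the third member without a test, had 83 counts in GFP-positive replicate 3 (11.9 CPM) and 0 in each of the other 5. A count of 0 allows up to 0.52 to 0.69 CPM in those 5 libraries, for counting error only.

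The Ifit genes encode proteins several of which bind foreign RNA and block translation. All 4 lie on chromosome 19. Ifit1 had 13.8, 12.5 and 8.99 CPM in GFP-negative and 39.1, 10.4 and 33.1 CPM in GFP-positive libraries. GFP-positive replicates 1 and 3 were high and replicate 2 was within the GFP-negative range. Its log2 fold change was 1.23 ± 0.45 (SE; by edgeR, adjusted p = 0.358), and 1.09 ± 0.49 without GFP-positive replicate 3 (edgeR adjusted p = 0.395). Ifit3 had 11.2, 3.64 and 4.61 CPM against 18.2, 13.1 and 11.2 CPM, with the lowest GFP-positive and the highest GFP-negative value nearly equal. Ifit2, by contrast, had 35.0 to 44.1 CPM in GFP-negative and 26.2 to 51.5 CPM in GFP-positive libraries, and its fold change of 0.06 turned to -0.16 without GFP-positive replicate 3. Ifit3 and its copy Ifit3b, at 1.82 to 6.58 CPM, share reads: 31.7% of the windows of Ifit3 occur in Ifit3b.

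ISG15 is a ubiquitin-like protein that is joined to new proteins during the response. Isg15 was at 38.8, 31.2 and 21.5 CPM in GFP-negative and 30.8, 32.9 and 59.95 CPM in GFP-positive libraries. GFP-positive replicates 1 and 2 lay within the GFP-negative range, and the log2 fold change of 0.44 fell to 0.07 without replicate 3. Usp18, which removes ISG15 and shuts off the type I receptor, had 1.16, 0 and 3.07 CPM against 5.89, 2.30 and 17.6 CPM, on 0 to 123 counts. Its log2 fold change was 2.60 ± 1.06 (SE; by edgeR, adjusted p = 0.427) and 1.54 without GFP-positive replicate 3 (edgeR adjusted p = 0.67). Herc6, the mouse ligase for ISG15, ranged from 16.7 to 21.4 CPM in GFP-negative and from 19.5 to 30.3 CPM in GFP-positive libraries.

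Rtp4 had the smallest p-value of all members. It encodes a receptor chaperone induced by interferon (chromosome 16, 23520291 to 23614222, plus strand). It stood at 20.0, 17.3 and 27.4 CPM in GFP-negative and 42.3, 36.8 and 79.3 CPM in GFP-positive libraries. Every GFP-positive library was above every GFP-negative one, and replicate 3 was the highest. The log2 fold change was 1.29 ± 0.32 (SE; by edgeR, adjusted p = 0.154). With the replicate block it was 1.24 (edgeR adjusted p = 0.0491), by DESeq2 1.30 (adjusted p = 0.0167), and without GFP-positive replicate 3 it was 0.89 ± 0.30 (edgeR adjusted p = 0.235). Over all alternatives the adjusted p ran from 0.00113 to 0.525. The gene Gm45338 overlaps Rtp4 on the same strand and holds 11.2% of its windows.

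**Figure D3:**
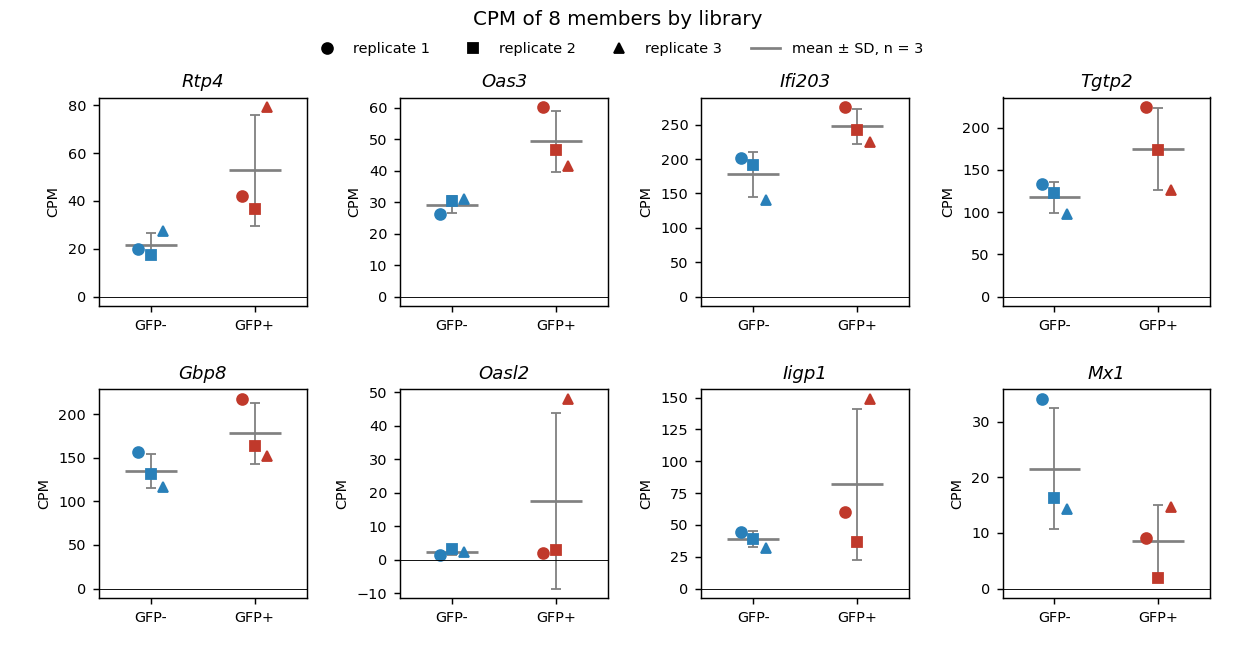
CPM of 8 members by sort gate; each point is a library (circle, square and triangle for replicates 1, 2 and 3), the bar is the mean and the whisker the SD (n = 3), and each axis includes 0. In Rtp4, Oas3 and Ifi203 the gates do not overlap; Oasl2 (48.1 CPM) and Iigp1 (149 CPM) are high in GFP-positive replicate 3.

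Mx1 was the member that went most against the rest. It encodes a dynamin-like GTPase that blocks influenza viruses, and many laboratory strains carry a disrupted copy. It stood at 34.1, 16.4 and 14.3 CPM in GFP-negative and at 9.18, 1.84 and 14.6 CPM in GFP-positive libraries. GFP-positive replicates 1 and 2 were below all GFP-negative libraries, and replicate 3 was within their range. The log2 fold change was -1.32 ± 0.62 (SE; by edgeR, adjusted p = 0.519), and -1.92 ± 0.62 without GFP-positive replicate 3 (edgeR adjusted p = 0.217). Leaving out GFP-negative replicate 1 gave -0.82, and leaving out GFP-positive replicate 2 gave -0.85.

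Rsad2 (viperin), which makes a chain-terminating nucleotide, had 3.30, 0.227 and 3.51 CPM in GFP-negative and 3.81, 7.13 and 19.9 CPM in GFP-positive libraries. The gates were just apart, and the log2 fold change of 2.12 ± 0.85 (SE; by edgeR, adjusted p = 0.416) was 1.21 ± 0.96 without GFP-positive replicate 3. Cmpk2, the nucleotide kinase beside Rsad2 on chromosome 12, had 13.0 to 14.0 CPM against 16.5 to 18.9 CPM, also with no overlap. Bst2 (tetherin, which holds budding virus at the cell surface) had 46.2 to 68.8 CPM against 49.2 to 73.9 CPM, and its groups overlapped. Bst2 also marks plasmacytoid dendritic cells. Of 5 other markers of these cells, Siglech had 31.0, 5.69 and 8.11 CPM in GFP-negative libraries and 0, 0 and 0.861 CPM in GFP-positive ones. Ccr9 was at 0 in GFP-positive replicate 3 against 6.58 to 37.4 CPM. Tcf4 went the other way, at 12.3 CPM in GFP-positive replicate 3 against 2.19 to 6.82 CPM. Klk1 had 1.865 CPM there against 0 to 2.91 CPM. The summed markers were 0.0101% of counts in GFP-positive replicate 3 against 0.00297% to 0.00924% in the others, with 651 counts of that sum from Irf8, which myeloid cells also express. Their part in the level of Bst2 was not tested.

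Ifi27l2a, a small mitochondrial protein gene, had the highest level of all members per length, at a mean of 1196 TPM (transcripts scaled by gene length to a fixed total). It had 187, 189 and 192 CPM in GFP-negative and 163, 175 and 267 CPM in GFP-positive libraries. Replicates 1 and 2 of the GFP-positive gate were below every GFP-negative library and replicate 3 above. Its log2 fold change of 0.09 became -0.15 without replicate 3. The next antiviral members by TPM were Bst2 (185) and Isg15 (143).

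The remaining 8 antiviral members (Isg20, Ifi35, Xaf1, Parp9, Parp14, Trim30a, Samd9l and Nlrc5) had log2 fold changes of -0.19 to 0.44, and the groups overlapped in each. Trim30a, a TRIM protein that restrains inflammatory signalling, had 98.9, 79.6 and 70.0 CPM against 117, 94.7 and 125 CPM. Nlrc5, the transactivator of MHC class I genes, was level at 212 to 315 CPM against 237 to 318 CPM. Parp9 and Parp14, which modify proteins with ADP-ribose, had fold changes of -0.19 and 0.35. Exons of Parp9 overlap those of Dtx3l on the other strand, and the library procedure does not keep the strand.

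**Figure D4:**
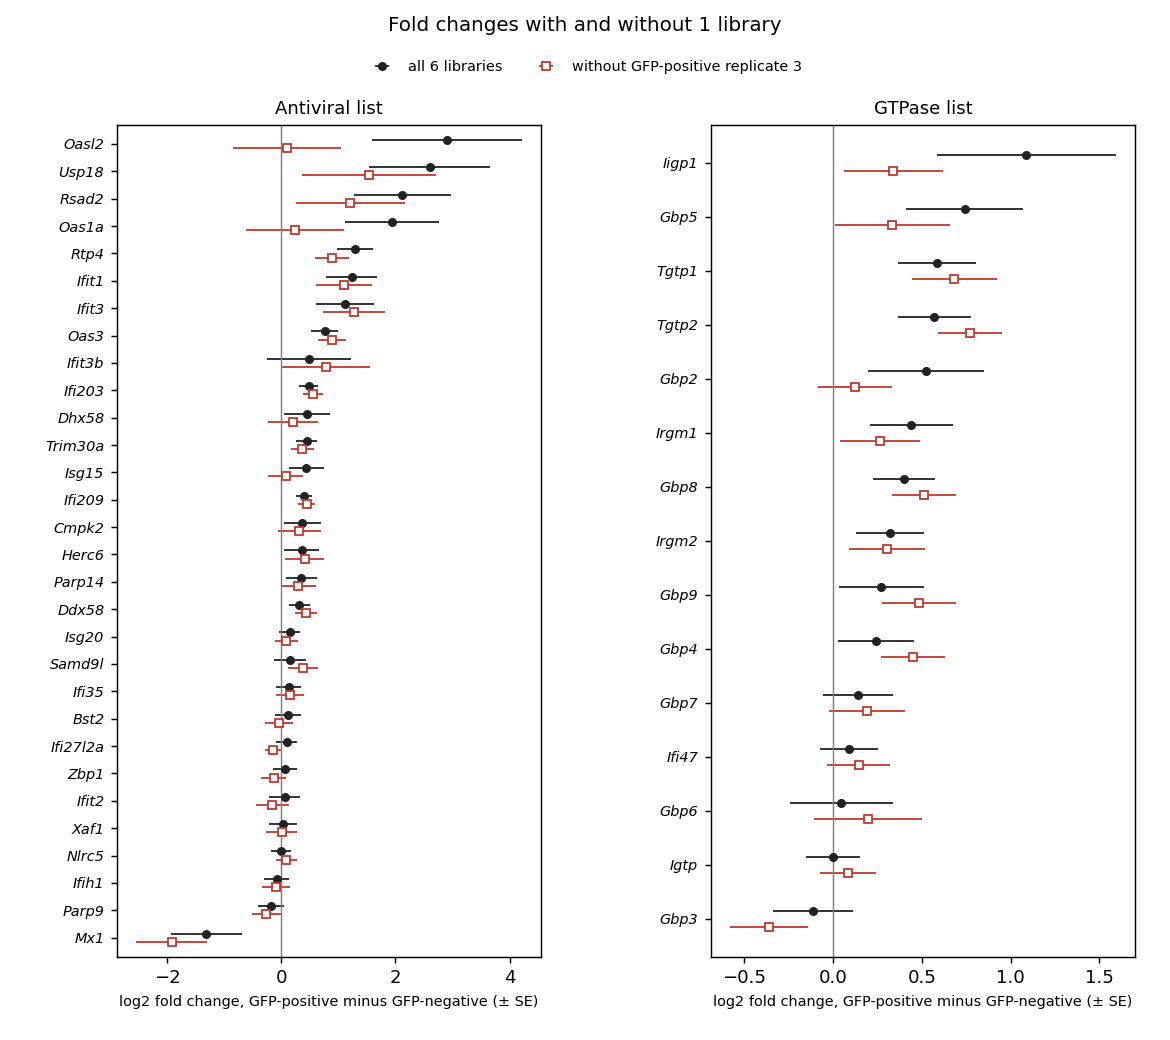
Log2 fold change of each tested member, GFP-positive minus GFP-negative, with its SE, from edgeR's fit of all 6 libraries (filled circles) and of the 5 libraries left without GFP-positive replicate 3 (open squares). Oasl2 moves from 2.90 to 0.10 and Iigp1 from 1.09 to 0.34, while Oas3, Ifi203, Tgtp1 and Tgtp2 are as large or larger without that library.

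Among the GTPases the T cell-specific GTPases Tgtp1 and Tgtp2, immunity-related GTPases of the kind that coats pathogen vacuoles, had the smallest p-values. Tgtp2 (chromosome 11, 49057194 to 49064206, minus strand) stood at 133, 122 and 97.4 CPM in GFP-negative and 224, 173 and 127 CPM in GFP-positive libraries. GFP-positive replicates 1 and 2 were above every GFP-negative library and replicate 3 was within their range. The log2 fold change was 0.57 ± 0.20 (SE; by edgeR, adjusted p = 0.357) and 0.77 ± 0.18 without GFP-positive replicate 3 (edgeR adjusted p = 0.0887). Tgtp1 (chromosome 11, 48985327 to 48994172, minus strand) had 67.5, 44.8 and 46.5 CPM against 93.9, 74.7 and 69.9 CPM, with no overlap. Of its windows 83.3% occur in Tgtp2 or the neighbouring Gm12185, so the counts of the pair cannot be fully told apart.

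The other immunity-related GTPases of chromosome 11 were high in both gates. Igtp (Irgm3, a regulator that guards the cell's own membranes) had the second highest TPM of all members, with a mean of 421, and was level: 308, 309 and 273 CPM in GFP-negative and 357, 268 and 267 CPM in GFP-positive libraries. Its promoter shares with Tgtp2 the paired GAS and ISRE letters shown above. Ifi47, at a mean of 285 TPM, had 210 to 263 CPM against 215 to 310 CPM. Irgm1, a regulator of autophagy, had 146, 121 and 90.8 CPM against 174, 111 and 201 CPM, and Irgm2 had 62.3 to 84.1 CPM against 77.5 to 107 CPM, with overlap in both. The 6 GTPase genes of chromosome 11 summed to 900 to 1073 TPM in GFP-negative libraries, to 1398 TPM in GFP-positive replicate 1 and to 960 and 910 TPM in replicates 2 and 3.

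Iigp1 (Irga6) lies apart on chromosome 18. It had 44.8, 39.1 and 32.02 CPM in GFP-negative and 60.3, 36.6 and 149 CPM in GFP-positive libraries. GFP-positive replicate 3 was 3.81 times the median of the other 5. The log2 fold change was 1.09 ± 0.50 (SE; by edgeR, adjusted p = 0.54), and 0.34 ± 0.28 without that library (edgeR adjusted p = 0.696).

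The Gbp genes form clusters on chromosomes 3 and 5, and the 2 clusters differed across the libraries. Guanylate-binding proteins assemble on microbes and broken vacuoles and expose them to inflammasomes. On chromosome 5, Gbp8 had 156, 132 and 117 CPM in GFP-negative and 218, 164 and 153 CPM in GFP-positive libraries. Gbp4 had 409, 341 and 278 CPM against 520, 409 and 287 CPM, and Gbp9 had 139, 133 and 81.1 CPM against 165, 162 and 100 CPM. In all 3 genes GFP-positive replicate 1 was the highest library and GFP-negative replicate 3 the lowest.

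Their log2 fold changes were 0.40 ± 0.17, 0.24 ± 0.21 and 0.27 ± 0.24 (SE; by edgeR, adjusted p = 0.456, 0.766 and 0.766), and 0.51, 0.45 and 0.48 without GFP-positive replicate 3 (edgeR adjusted p = 0.242, 0.312 and 0.366). Gbp6, of the same cluster, had 30.7 to 66.5 CPM against 44.8 to 67.0 CPM, and 51.3% of its windows occur in Gm43302, Gbp10 or Gbp11. Exons of Gbp4, Gbp8 and Gbp9 overlap on the same strand.

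On chromosome 3, GFP-positive replicate 3 was highest for Gbp2, Gbp3 and Gbp5. Gbp2 had 125, 139 and 201 CPM in GFP-negative and 190, 145 and 333 CPM in GFP-positive libraries, and Gbp5, an activator of the NLRP3 inflammasome, had 17.8, 18.0 and 21.5 CPM against 24.1, 23.7 and 47.8 CPM. The groups overlapped for Gbp2 and were apart for Gbp5. Their log2 fold changes of 0.52 ± 0.33 and 0.74 ± 0.33 (SE; by edgeR, adjusted p = 0.667 and 0.46) became 0.13 and 0.33 without GFP-positive replicate 3 (edgeR adjusted p = 0.882 and 0.753). Gbp3 was the GTPase with a negative fold change. It had 67.7, 96.0 and 94.7 CPM against 60.6, 72.4 and 105 CPM, a log2 fold change of -0.11, or -0.36 without that library. Gbp7 ranged from 157 to 178 CPM against 132 to 240 CPM.

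As a sum, the 4 Gbp genes of chromosome 3 reached 519 TPM in GFP-positive replicate 3 against 292 to 422 TPM in the other 5 libraries. The 4 of chromosome 5 reached 527 TPM in GFP-positive replicate 1 and 281 TPM in replicate 3, against 263 to 402 TPM in the other 4. The difference between the clusters was not tested.

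In GFP-positive replicate 3, 9 of the 45 tested members (20.0%) had at least 2 times the median of the other 5 libraries, against 8.40% of all tested genes. These were Oas1a, Iigp1, Rtp4, Ifit1, Gbp2 and Gbp5, and also Oasl2, Usp18 and Rsad2, which entered the test through the gate where they were high. In that library Lyz2, which encodes lysozyme in myeloid cells, reached 4217 CPM against 65.8 to 100.4 CPM in the others. Because these are bulk samples, a change in the share of a cell type and a change of RNA per cell cannot be told apart.

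The pathway upstream of the members was measured with 117 further genes in 8 lists, of which 116 were in the table and 96 were tested. Adjusted over all genes, 1 rose (Socs3) and 0 fell, against 0.108% of all genes. A positive log2 fold change was found in 63 and a negative one in 33, or in 51 and 45 without GFP-positive replicate 3. Over all tested genes 51.6% were positive, or 51.5% without that library. At the ligands, Ifng was the 1 of 8 genes that could be tested. It had 783, 485 and 543 CPM in GFP-negative and 437, 325 and 374 CPM in GFP-positive libraries, with no overlap. Its log2 fold change was -0.67 ± 0.19 (SE; by edgeR, adjusted p = 0.212), or -0.65 without GFP-positive replicate 3, and with the replicate block it fell (edgeR adjusted p = 0.049). Ifnb1, Ifna1, Ifna2, Ifna4 and Ifnl3 had no count in any library, and Ifnk and Ifnl2 at most 0.430 CPM.

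All 5 tested receptor genes had positive fold changes, against 51.6% of all tested genes, and none passed. Ifnar1 was level, at 112 to 156 CPM against 105 to 163 CPM. Ifnar2, the other chain of the type I receptor, had 44.2, 34.6 and 42.3 CPM against 67.5, 54.5 and 61.1 CPM, with no overlap (log2 fold change 0.60 ± 0.21, SE; by edgeR, adjusted p = 0.343; 0.61 without GFP-positive replicate 3). Ifngr1 was abundant, at 1414 to 1551 CPM against 1538 to 1781 CPM. Ifngr2, the signalling chain of the interferon gamma receptor, was low: 3.30, 3.18 and 0 CPM against 5.20, 9.20 and 30.8 CPM. The groups did not overlap, and the highest value was in GFP-positive replicate 3 (log2 fold change 2.79, or 1.73 without that library). Ifngr2 was below the filter limit in GFP-negative replicate 3 and in no other library.

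Among 12 kinases and factors 9 were positive, or 8 without GFP-positive replicate 3, against 51.6% and 51.5% of all tested genes. None passed. Jak1 had 698 to 780 CPM against 679 to 910 CPM. Jak2, the kinase of IFNGR2, had 66.1, 70.7 and 54.4 CPM against 34.6, 43.7 and 52.1 CPM, lower with no overlap (log2 fold change -0.55 ± 0.22, SE; by edgeR, adjusted p = 0.416; -0.69 without GFP-positive replicate 3). Tyk2, the kinase of IFNAR1, had 73.9 to 86.0 CPM against 46.8 to 71.7 CPM, also lower with no overlap. Stat2, a factor of the type I response, had 25.4 to 45.4 CPM against 16.6 to 29.3 CPM.

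Irf1, a transcription factor gene induced early by interferon, had 300 to 382 CPM against 386 to 499 CPM, apart by a narrow margin. Irf7, the amplifier of type I interferon, had 103, 87.6 and 52.4 CPM against 134, 90.8 and 130 CPM (log2 fold change 0.55 ± 0.24, SE; by edgeR, adjusted p = 0.467; 0.49 without GFP-positive replicate 3). Irf9 had 76.3 to 91.3 CPM against 67.8 to 123 CPM. Irf8, a factor of myeloid and dendritic cells named here after its values were seen, had 29.5, 20.5 and 25.0 CPM against 5.54, 7.36 and 93.4 CPM. GFP-positive replicates 1 and 2 were below every GFP-negative library and replicate 3 was above. The log2 fold change of 0.52 became -1.95 ± 0.40 without that library (edgeR adjusted p = 0.0578).

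Socs3, an inhibitor of cytokine receptors, was the gene that rose, from 131, 120 and 140 CPM to 320, 256 and 383 CPM (log2 fold change 1.29 ± 0.17, SE; by edgeR, adjusted p = 0.0125; 1.16 without GFP-positive replicate 3, adjusted p = 0.00762). Socs1, the inhibitor of interferon receptor signalling, had 57.1 to 83.5 CPM against 82.6 to 93.5 CPM. Its groups overlapped by a narrow margin.

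The lists of genes that act beside the members went both ways, where 51.6% of all tested genes were positive. In the antigen presentation list, 8 of 16 tested genes were positive, with a median log2 fold change of -0.02; the 2 with the smallest p were Tapbpl (0.37) and H2-Q7 (-0.19). Of 6 tested sensor genes 3 were positive, with Trim25 at 0.69 and Aim2 at -0.34. In the schlafen list, of growth regulators induced by interferon, 5 of 8 were positive; Slfn1 had 109, 87.3 and 114 CPM against 145, 148 and 155 CPM (log2 fold change 0.53 ± 0.15, SE; by edgeR, adjusted p = 0.228; 0.52 without GFP-positive replicate 3). Slfn5 had 2.73 to 7.75 CPM against 5.54 to 32.7 CPM, and its log2 fold change of 2.07 was 1.48 without that library.

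Of the other interferon-induced genes, 28 of 41 tested were positive, against 51.6% of all tested genes. Their median of 0.21 became -0.01 without GFP-positive replicate 3. Ifi213, a neighbour of Ifi203 and Ifi209 on chromosome 1, had 133, 98.2 and 97.8 CPM against 192, 164 and 194 CPM. Its groups did not overlap (log2 fold change 0.74 ± 0.16, SE; by edgeR, adjusted p = 0.118; 0.71 without GFP-positive replicate 3), and with the replicate block it rose (edgeR adjusted p = 0.0445). Ifit1bl1, a relative of Ifit1, had 46.1, 29.6 and 46.1 CPM against 76.6, 67.4 and 61.0 CPM (log2 fold change 0.75 ± 0.23, SE; by edgeR, adjusted p = 0.253; 0.84 without GFP-positive replicate 3).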

How the data were processed

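RNA was measured in 6 libraries, 3 per sort gate. The authors deposited raw read counts per gene and TPM values (scaled by gene length and to one fixed total per library). The build mm10 and the tools STAR 2.7.10b, fastp 0.23.3, deepTools 3.5.1 and SAMtools 1.17 are named in the submitters' processing notes. The counter is not given in the sources used here, nor is the annotation. Groups came from the sample titles.

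Counts were tested with edgeR 4.0.16 (R 4.3.3): TMM scaling, a filter by expression with a minimum count of 10, a robust quasi-likelihood fit of all 6 libraries and Benjamini-Hochberg adjustment over 11074 genes at 0.05. The code was tested on simulated data. TPM values served to compare genes and as an alternative, on log2(TPM + 1) with limma 3.58.1. DESeq2 1.42.0, limma-voom, other scalings and filters, a replicate block and the omission of each library were the other alternatives. Deviations of same-numbered libraries from their group means correlated across genes at 0.108, 0.102 and 0.11. Between libraries of unlike number the correlations were -0.133 to 0.0249. The replicate numbers were therefore used in the comparisons within pairs and in the replicate block. The correlations are small and come from the same counts that were then compared. The main edgeR fit left them out, so its p-values take no account of pairs. The labels do not say what a number marks. No pair of libraries agreed within sampling noise (smallest chi-square per degree of freedom 10.7). An exact permutation test of 3 against 3 libraries cannot go below p = 0.1, so none was used.

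The members and gene lists were chosen with earlier results of these data known. By rule, each list's members described in full were the 6 with the smallest edgeR p-values over 6 libraries, the 6 without GFP-positive replicate 3, the 3 with the highest mean TPM and those left untested; any other member could be named once. From the pathway lists the text names the genes past the threshold, fixed signalling genes and the 2 genes of each further list with the smallest p-values. Gene positions are from GENCODE M21. The windows of 100 bases, the read length in the labels, were compared between transcripts. The values of 1 gene of the pathway lists are not reported here.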

Additional observations from a re-analysis of the deposited data

How the results depend on the processing

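Medians of both lists kept their sign under every alternative run: 0.26 to 0.43 for the antiviral list and 0.21 to 0.45 for the GTPases. The count of all genes called, 12, depended on the setting: 19 with library size alone, 373 with no filter, 200 by DESeq2, 81 with the replicate block, 1 on log2(TPM + 1) with or without a filter and 0 on log2(TPM + 0.1). It ranged from 0 to 50 when single libraries were left out: 0 without GFP-positive replicate 1, 3 without replicate 2, 50 without replicate 3 (42 with the filter applied anew) and 5 without GFP-negative replicate 2. Members called went from 0 to 3 antiviral genes (Ifi44, Oasl2 and Rtp4) and 1 GTPase (Iigp1) with no filter. By DESeq2 and with the replicate block 1 antiviral gene (Rtp4) was called, and no other member's call changed. With an expression filter, members called stayed at 0 when any single library was left out. The fit with no filter was not run with a library left out. The cause of these differences was not tested.

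Members near 0 changed sign. On log2(TPM + 1), with or without a filter, and log2(TPM + 0.1), the log2 fold changes were -0.053 and -0.056 for Ifit2, -0.0067 and -0.0067 for Ifi27l2a, -0.083 and -0.087 for Xaf1, -0.036 and -0.037 for Zbp1 and -0.075 and -0.075 for Igtp. Igtp was at -0.015 with library size alone, at -0.0051 with no filter and at -0.010 by limma-voom and with the replicate block, and Xaf1 at -0.017 with the block. Without GFP-positive replicate 3 and with the filter applied anew, the values were -0.16 for Ifit2, -0.047 for Bst2, -0.15 for Ifi27l2a, -0.14 for Zbp1 and 0.079 for Nlrc5. Over the omission of single libraries the range was -0.16 to 0.29 for Ifit2, -0.042 to 0.27 for Bst2, -0.15 to 0.23 for Ifi27l2a, -0.19 to 0.25 for Xaf1, -0.14 to 0.27 for Zbp1, -0.36 to 0.049 for Gbp3, -0.22 to 0.22 for Gbp6, -0.11 to 0.33 for Gbp7, -0.075 to 0.21 for Ifi47, -0.15 to 0.086 for Igtp, -0.32 to 0.0058 for Parp9, -0.11 to 0.38 for Samd9l and -0.15 to 0.11 for Nlrc5. With 3 libraries per gate and 4309500 to 7462076 counts, low members such as Usp18, Oas1a and Rsad2 had SEs of 0.82 to 1.06.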
